A study of Mus musculus with 18 samples.

Results

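Glycolysis and hypoxia response genes were followed in mouse monocytes and in the monocyte-derived cells (MDCs) that grew from them with GM-CSF. The list named 38 genes, of which 36 matched a gene symbol in the table of 20298 genes, ignoring case; *Pgk1* and *Pdk3* were not analysed here. RNA was sequenced from WT mice and DKI mice (C57BL/6J background) in 6 groups of 3 libraries. The groups were untreated WT monocytes, untreated DKI monocytes (both day 0), and WT and DKI cells after 3 or 6 days in culture with 20 ng/mL GM-CSF. DKI mice carry knock-in mutations in the N-domains of both *Stat5a* and *Stat5b*, so that STAT5 dimers form but tetramers do not, in every cell that expresses them. The starting cells were Ly6C+ CCR2+ bone marrow monocytes enriched with an isolation kit, and no group was sorted again after culture. The labels name liver as the tissue, but 4 hepatocyte markers (*Alb*, *Apoa1*, *Ttr* and *Cyp3a11*) summed to at most 0.0470 RPKM in any library.

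Glycolysis breaks glucose down to pyruvate in the cytosol. Glucose enters through facilitative transporters of the SLC2A family, is trapped by hexokinases, and passes a committed step at phosphofructokinase. Pyruvate is turned into lactate by lactate dehydrogenase and exported by monocarboxylate transporters, or is used in mitochondria. Pyruvate dehydrogenase kinases limit that use. Many of these genes are transcribed by hypoxia-inducible factor 1 (HIF-1), whose alpha subunit *Hif1a* is marked for destruction by oxygen-dependent prolyl hydroxylases (*Egln1*, *Egln3*). Myeloid cells are known to raise glycolysis when they are activated or cultured with growth factors.

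Levels are given as RPKM, read counts divided by gene length and by library size, a scale meant for comparing genes with each other. The depth, estimated from the smallest values, was 29.5 to 43.2 M reads per library (median 36.5 M), so that a 1 kb gene with 3 reads had at most 0.102 RPKM. These were bulk libraries, in which fewer cells of a type and less RNA per cell cannot be told apart. Marker genes differed strongly between the cultures. The summed RPKM of 8 dendritic cell markers (among them *Cd209a*, *Ccl17* and *Itgax*) was 12160 to 13553 in WT and 728 to 2385 in DKI on day 3, and 8387 to 14168 against 1312 to 4048 on day 6. Most of the WT sum came from *Ccl17* and *H2-Ab1*, and *Flt3* overlapped between the genotypes on day 3. The sum of 8 macrophage markers (among them *Mrc1*, *Mertk* and *C1qa*) was 270 to 773 in WT and 2466 to 6098 in DKI on day 3. On day 6 it was 364 to 1755 against 1712 to 7184, and the groups overlapped. *C1qa* and *Fcgr1* overlapped between the genotypes on both days. The sum of 8 Ly6C+ monocyte markers was 1586 to 3832 in WT and 8945 to 21057 in DKI on day 3, and 2849 to 4173 against 10064 to 14040 on day 6. One gene, *Lyz2*, made up most of the DKI sums and of the gap (732 to 2630 RPKM in WT and 7417 to 18907 in DKI on day 3). The other 7 monocyte markers summed to 854 to 1247 against 1528 to 2547 on day 3 and to 648 to 1188 against 1426 to 1804 on day 6, and *Ccr2* overlapped between the genotypes on both days and *Ly6c2* on day 6. The 8 neutrophil markers summed to 1834 to 4356 on day 0. On day 3 the sum was 168.6, 4149 and 298 in WT replicates 1 to 3 and 1528, 2491 and 530 in the DKI replicates, and on day 6 it was 35.4 to 591 in WT and 25.1 to 2771 in DKI. B cell, T and NK cell and erythroid markers (5, 5 and 2 genes found) summed to at most 14.1 RPKM in any library, and basophil and mast cell markers (4 genes) to at most 121 RPKM. Proliferation markers (4 genes) summed to 311 to 498 RPKM on day 0 and to 32.7 to 117 RPKM on day 3, and on day 6 to 38.9 to 78.7 RPKM in WT and 6.15 to 98.6 RPKM in DKI, where replicate 3 was the lowest. At least 1 of the B cell and of the T and NK cell markers was at 0 in each cultured group. The part of these differences in the results was not tested.

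A few libraries stood apart on the glycolysis genes themselves. The 36 genes held 0.401% to 0.461% of the summed RPKM in the 6 libraries of day 0. They held 0.869% in WT day 3 replicate 1, 0.802% in WT day 6 replicate 1 and 0.816% in DKI day 6 replicate 2, and 0.505% to 0.604% in the other 9 cultured libraries. WT day 3 replicate 1 was the highest library of its group for 25 of 33 genes with a group mean above 2 RPKM (75.8%), against 33.2% of all such genes. The share was 20 of 33 (60.6%, against 26.2%) for WT day 6 replicate 1 and 22 of 33 (66.7%, against 45.6%) for DKI day 6 replicate 2. Replicate 1 of days 3 and 6, in both genotypes, has a library name that carries an earlier year than the names of the other libraries. Where leaving out one of these libraries ended or made a call, or moved a called value by over 1.5 times, the value without it is given as well.

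**Figure D1:**
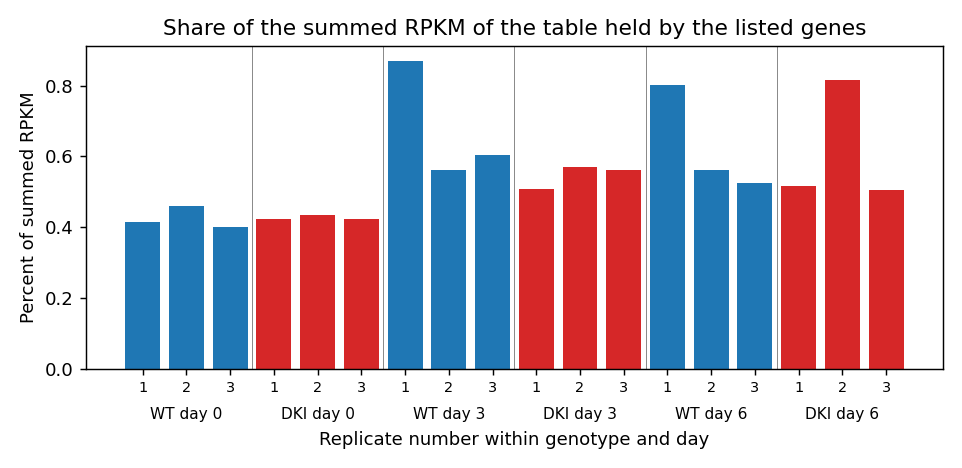
Percent of each library's summed RPKM held by the 36 glycolysis and hypoxia response genes (bars, 1 per library; blue WT, red DKI). The 6 day 0 bars lie between 0.401% and 0.461%, and 3 cultured libraries reach 0.802% to 0.869%.

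Between day 0 and day 3, several of the listed genes rose and most were not called. In WT cells 9 of the 33 genes that were expressed highly enough to be tested rose and 1 fell, and in DKI cells 9 of 32 rose and 2 fell. The genes that rose in both were the aldolases *Aldoa* and *Aldoc*, lactate dehydrogenase A, triosephosphate isomerase, the glucose transporter *Slc2a1* and the kinase *Pdk1*. A gene was tested where its mean RPKM was above 2 in at least one group, and was called at an adjusted p under 0.05 (limma, Benjamini-Hochberg over all tested genes) and a fold change above 1.5. The listed genes called were 30.3% in WT (27.3% higher, 3.03% lower) and 34.4% in DKI (28.1% higher, 6.25% lower), and those of all tested genes 43.1% in WT (20.3% higher, 22.8% lower) and 34.2% in DKI (13.1% higher, 21.1% lower). The median log2 fold change of the listed genes was 0.49 in WT and 0.25 in DKI, against -0.05 and -0.16 over all tested genes. Without WT day 3 replicate 1, 8 genes were called in WT, and *Tpi1* (adjusted p = 0.0588) and *Pdk1* (adjusted p = 0.0735) were no longer among them. In DKI the count fell to 5, 4 and 7 when replicate 1, 2 or 3 of day 0 was left out, while the calls over all genes went from 3394 to 2407, 1976 and 2564. From day 3 to day 6 none of the 33 tested genes was called by limma in either genotype, and 0% of all tested genes were. At an unadjusted p under 0.05 there were 3 in WT (*Pfkp*, *Pfkfb3* and *Bnip3l*; 9.09%, against 7.51% of all tested genes) and 0 in DKI (against 93 of all 9540 tested genes).

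**Figure D2:**
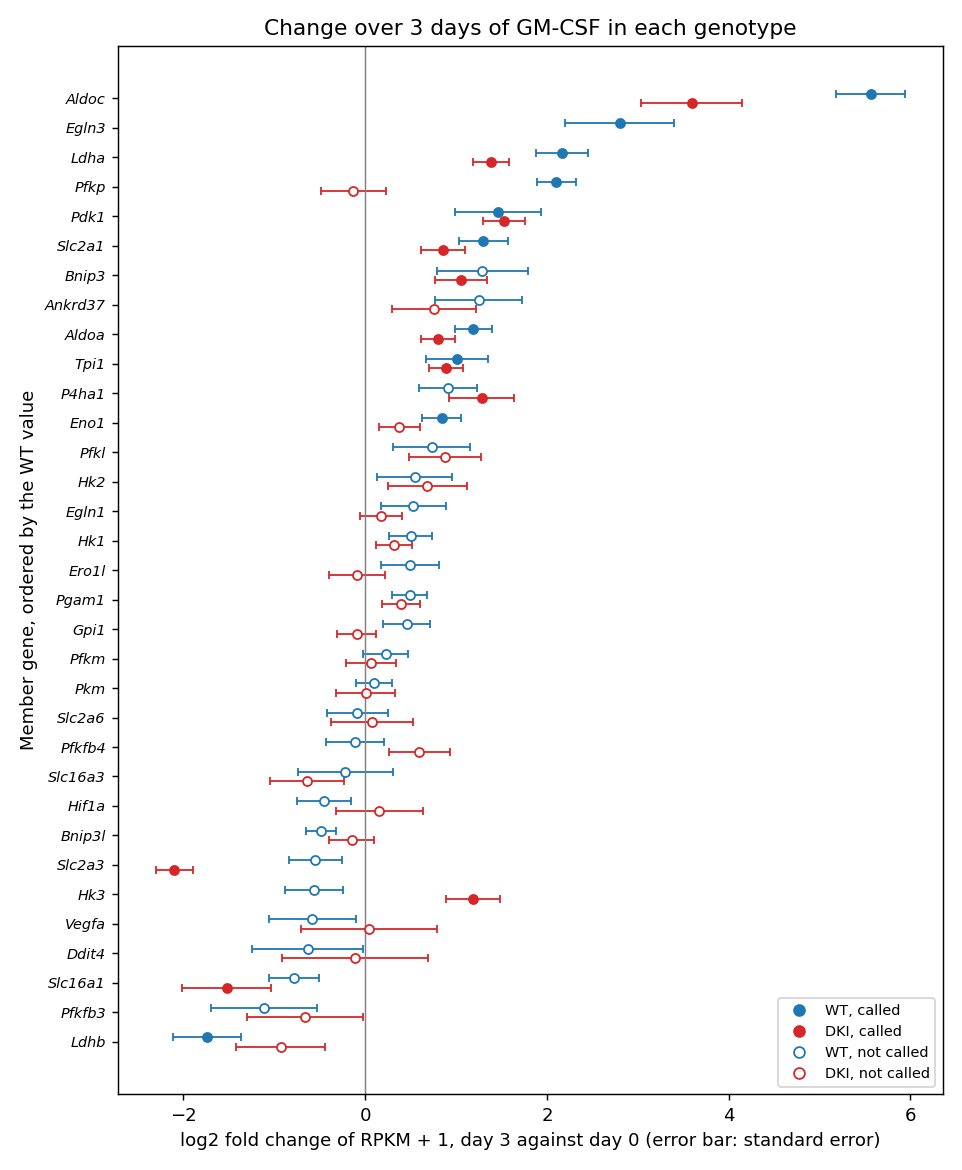
Log2 fold change of RPKM + 1 from day 0 to day 3 for each tested gene (points; error bars are standard errors of the limma fit; blue WT, red DKI; filled points were called). *Aldoc* has the largest rise in both genotypes (5.56 in WT, 3.59 in DKI), and *Pfkp* lies at 2.10 in WT and -0.13 in DKI.

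The genotypes differed in few of these genes. Before culture 0 of 30 tested genes were called between DKI and WT monocytes by limma, and 0% of all tested genes were. An unadjusted p under 0.05 was reached by 0 listed genes and 44 of all 9179 tested genes. Same-numbered libraries of the genotypes deviated together on day 0 (correlations of 0.686 to 0.865). The fit left this in the spread, so it was cautious. On day 3, 2 of 33 genes were called (7.42% of all tested genes were, 3.21% higher and 4.21% lower in DKI), and both were lower in DKI: *Pfkp* and *Slc2a3*. On day 6, 2 of 33 were called (7.54% of all tested genes, 2.72% higher and 4.82% lower), with *Hk3* higher and *Pfkp* lower in DKI. These shares, 6.06% on each day, were close to those of all genes. The groups did not overlap for 7 genes on day 3, 2 higher in DKI (*Hk3* and *Pfkfb4*) and 5 lower (*Slc2a3*, *Pfkp*, *Aldoa*, *Ldha* and *Egln3*), where 36.3% of all tested genes had such groups (13.4% higher, 22.9% lower). On day 6 they did not overlap for 3 genes (*Hk3* and *Pfkfb4* higher, *Pfkp* lower), against 37.2% of all tested genes (10.6% higher, 26.6% lower). The median difference was -0.16 on day 3 and -0.05 on day 6 on the log2 scale, against -0.11 and -0.17 over all genes. The change from day 0 to day 3 differed between genotypes for 1 of 33 genes, *Pfkp* (2.91% of all tested genes were called, 1.2% higher and 1.7% lower), and the change from day 3 to day 6 for 0 of 33 (0%; 0 listed genes and 89 of all 9985 had an unadjusted p under 0.05). The comparisons share libraries (those of day 3 enter 7 of the 9), so they are not separate evidence.

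**Figure D3:**
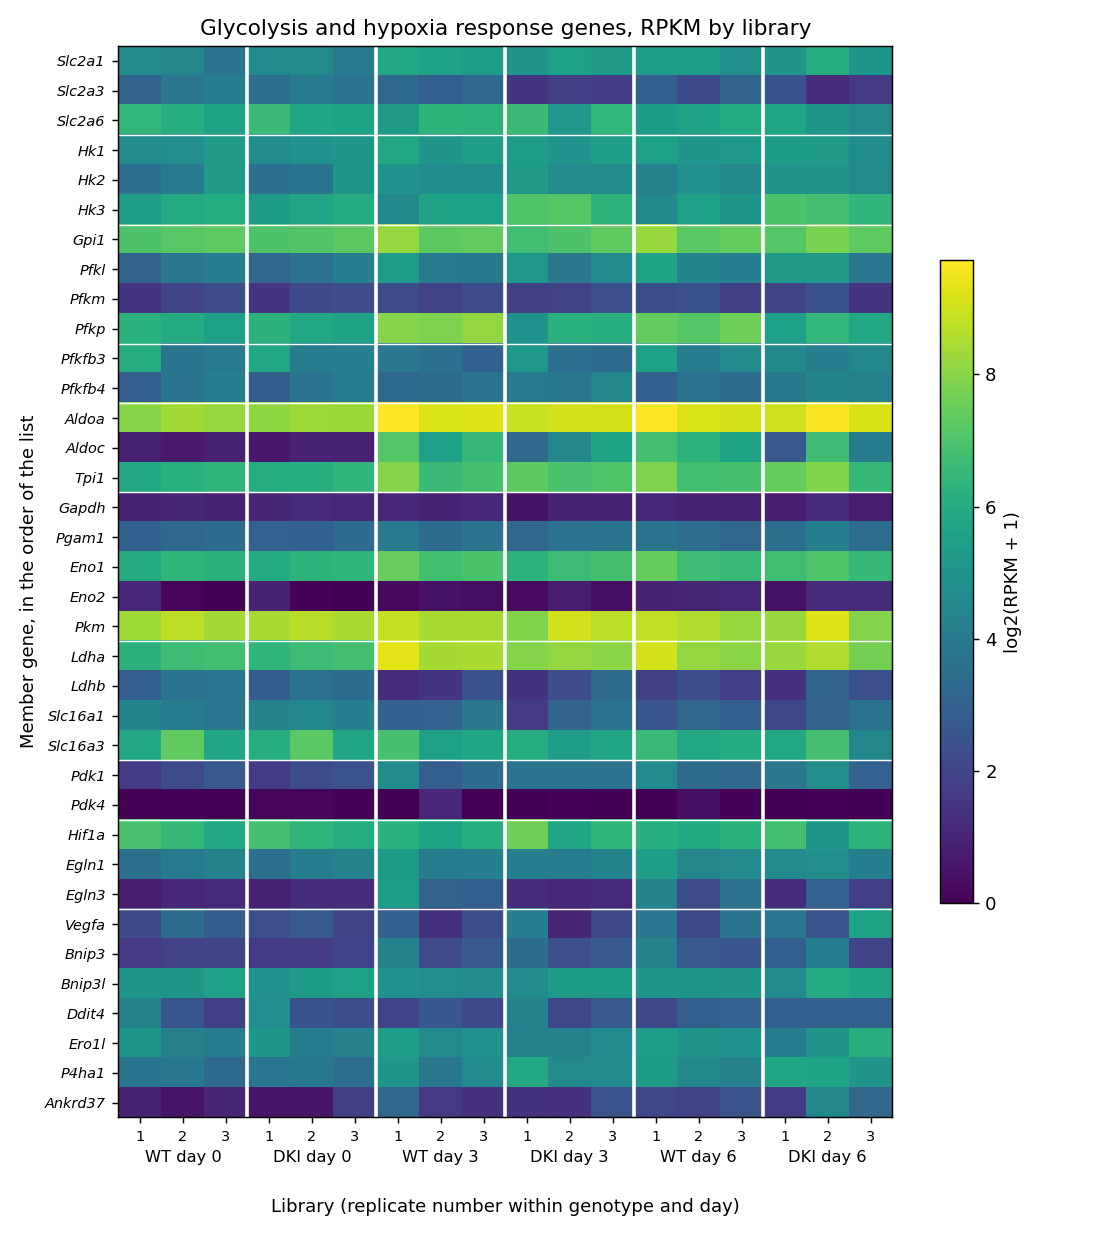
Log2(RPKM + 1) of the 36 genes (rows, in the order of the list, with white lines between role groups) in the 18 libraries (columns). *Aldoc* is near 0.6 to 0.98 RPKM before culture and reaches 139 RPKM in WT day 3 replicate 1, while *Pdk4*, *Eno2* and *Gapdh* stay dark throughout.

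The results follow by step of the pathway, starting with glucose uptake. *Slc2a1* encodes the widely expressed transporter GLUT1, and *Slc2a3* the high-affinity GLUT3. *Slc2a1* had 25.0, 20.6 and 12.2 RPKM in WT monocytes and 55.6, 45.8 and 41.0 RPKM after 3 days, and it rose by 1.30 (SE 0.27, adjusted p = 0.0072) on the log2 scale. In DKI cells it went from 23.5, 23.3 and 14.7 to 31.8, 45.0 and 36.0 RPKM, a rise of 0.86 (SE 0.24, adjusted p = 0.0332). The day 3 libraries lay above the day 0 libraries in each genotype.

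*Slc2a3* (chr6:122727809-122802363 in GRCm38.p6, as are the other gene positions) had the opposite course in DKI cells. Its level was 7.50, 13.5 and 17.2 RPKM in WT and 10.6, 15.3 and 12 RPKM in DKI on day 0. On day 3 it was 8.89, 6.48 and 8.60 RPKM in WT and 1.73, 2.55 and 2.22 RPKM in DKI, so that the lowest WT library was above the highest DKI library. The difference was -1.50 (SE 0.19, adjusted p = 0.0112), and -1.33 in the libraries whose names carry the later year (adjusted p = 0.0488). It was called without DKI day 3 replicates 1, 2 or 3 and without WT day 3 replicate 2, but not without WT day 3 replicate 1 (-1.43, adjusted p = 0.0512) or replicate 3 (-1.45, adjusted p = 0.0521). From day 0 to day 3 *Slc2a3* fell in DKI (-2.10, SE 0.20, adjusted p = 0.0015) and changed by -0.55 in WT (adjusted p = 0.157), where it was called without WT day 0 replicate 1 (-0.86, SE 0.20, adjusted p = 0.0160). The difference between these changes was -1.55 (SE 0.37, adjusted p = 0.0513; 0.0453 with the replicate number as a block, where it was called). It was also called with a pseudocount of 0.1, with quantile normalization and without WT day 0 replicate 3 (adjusted p 0.0326 to 0.0426). On day 6 the levels were 6.97, 3.55 and 7.93 RPKM in WT and 4.53, 1.24 and 2.15 RPKM in DKI, which overlap (log2 difference -1.02, adjusted p = 0.16), although each DKI library was below the WT library of the same number. The day 6 difference was called with all 18 libraries in the fit (adjusted p = 0.0486). *Slc2a6*, a transporter of lysosomal membranes, ranged from 23.9 to 98.0 RPKM over the 18 libraries and was not called in any comparison.

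Hexokinases add the phosphate that keeps glucose in the cell, and *Hk3* is the family member that is largely confined to myeloid cells. *Hk3* (chr13:55005985-55021475) was at 41.8, 60.5 and 63.3 RPKM in WT and 38.8, 50.4 and 62.2 RPKM in DKI monocytes. On day 3 it was at 22.1, 47.0 and 46.1 RPKM in WT and 132, 144 and 77.6 RPKM in DKI, and on day 6 at 22.0, 45.2 and 34.1 against 123, 114.5 and 84.3 RPKM. The DKI libraries lay above the WT libraries on both days. The difference was 1.62 on day 3 (SE 0.37, adjusted p = 0.0512, not called) and 1.68 on day 6 (SE 0.29, adjusted p = 0.0289, called). The day 3 difference was called with quantile normalization (adjusted p = 0.0471) and with all 18 libraries in the fit (adjusted p = 0.00507), and was 1.27 without WT day 3 replicate 1 (adjusted p = 0.12). The day 6 call was lost without either WT replicate 1 or 3, or DKI replicate 1 or 3 (differences 1.41 to 1.84, adjusted p 0.0669 to 0.106), and in the libraries whose names carry the later year (1.30, adjusted p = 0.152). From day 0 to day 3 *Hk3* rose in DKI by 1.18 (SE 0.30, adjusted p = 0.0236; 0.0573 with the block, where it was not called) and changed by -0.56 in WT (adjusted p = 0.183). The difference of these changes was 1.75 (SE 0.47, adjusted p = 0.0800), and it was called without DKI day 3 replicate 3 (2.02, adjusted p = 0.0436).

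*Hk1* and *Hk2*, the ubiquitous and the inducible form, were not called in any comparison as fitted and had group means of 29.7 to 42.8 and 19.4 to 29.5 RPKM. The change of *Hk2* from day 0 to day 3 depended on replicate 3 of day 0 in both genotypes, and was larger without it. It was 0.55 in WT (adjusted p = 0.306) and 0.68 in DKI (adjusted p = 0.254), and without that library it was 1.04 (adjusted p = 0.00910) and 1.18 (adjusted p = 0.0301), both called. The *Hk3* share of the summed RPKM of the 3 hexokinases was 20.5% to 44.9% in WT and 54.2% to 72.1% in DKI on day 3, and 26.2% to 41.7% against 62.5% to 63.5% on day 6. Before culture it was 46.1% to 58.8% in WT and 47.5% to 53.7% in DKI.

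Phosphofructokinase carries out the committed step, and its platelet-type subunit *Pfkp* gave the largest called difference between genotypes among the listed genes. *Pfkp* (chr13:6579874-6649060) was at 73.3, 62.2 and 43.4 RPKM in WT and 75.6, 54.5 and 47.1 RPKM in DKI monocytes. After 3 days it was at 251, 231 and 282 RPKM in WT and at 31.0, 70.8 and 66.9 RPKM in DKI. After 6 days the levels were 167.9, 142 and 191 RPKM in WT and 44.1, 86.7 and 55.0 RPKM in DKI. WT libraries of both days were above each DKI library and above the day 0 libraries, whereas DKI libraries stayed in the range of 31.0 to 86.7 RPKM throughout.

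*Pfkp* rose in WT by 2.10 (SE 0.22, adjusted p = 0.00055), and its log2 change in DKI was -0.13 (95% interval -0.98 to 0.72). The change differed between genotypes by -2.23 (SE 0.44, adjusted p = 0.0245). This call was lost, with differences of -2.02 to -2.28 and adjusted p 0.0520 to 0.0617, when WT day 0 replicate 2 or 3, DKI day 0 replicate 1 or 2, or WT day 3 replicate 1 or 3 was left out. DKI was lower than WT by 2.24 on the log2 scale on day 3 (-2.24, SE 0.33, adjusted p = 0.0174) and by 1.46 on day 6 (-1.46, SE 0.28, adjusted p = 0.0340). The day 3 difference was kept without each DKI library of that day and in the libraries of the later year (-1.88, adjusted p = 0.0256), and leaving out WT day 3 replicates 1, 2 or 3 gave -2.17 to -2.31 with an adjusted p of 0.0609 to 0.0698. The day 6 call was lost with the block (adjusted p = 0.0559) and without each library of that day other than DKI replicate 2 (-1.25 to -1.57, adjusted p 0.0538 to 0.123), and was -1.73 without that one (adjusted p = 0.0154). It was -1.24 in the libraries of the later year (adjusted p = 0.192), where it was not called. The liver-type and muscle-type subunits *Pfkl* and *Pfkm* were not called in any comparison as fitted. The change of *Pfkl* from day 0 to day 3 in DKI was 0.87 (adjusted p = 0.127), and 1.23 without DKI day 3 replicate 2 (adjusted p = 0.0488), when it was called. As a share of the 3 subunits, *Pfkp* made up 85.4% to 94.0% in WT and 44.7% to 81.4% in DKI on day 3, and 76.6% to 90.5% against 52.2% to 78.5% on day 6, when the ranges overlapped. On day 0 it made up 68.5% to 88.5% in WT and 69.0% to 88.1% in DKI.

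*Pfkfb3* and *Pfkfb4* make fructose-2,6-bisphosphate, the activator of phosphofructokinase. *Pfkfb4* was at 9.09, 9.75 and 12.03 RPKM in WT and 15.3, 13.7 and 21.7 RPKM in DKI on day 3, and at 6.93, 11.6 and 9.78 against 14.1, 20.0 and 18.2 RPKM on day 6. The groups did not overlap on either day. The difference of 0.65 on day 3 (SE 0.21, adjusted p = 0.112) was not called, and that of 0.83 on day 6 (SE 0.22, adjusted p = 0.0683) was called with the block (0.0338), with median centring (0.98, adjusted p = 0.0431) and with quantile normalization (0.98, adjusted p = 0.0397). *Pfkfb3* followed the replicate number on day 0, with 63.3 and 56.4 RPKM in replicate 1 of WT and DKI and 12.8 to 16.7 RPKM in the others. It was not called in any comparison as fitted, and with the replicate block it was lower on day 3 than on day 0 in DKI (-0.66, adjusted p = 0.0334).

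**Figure D4:**
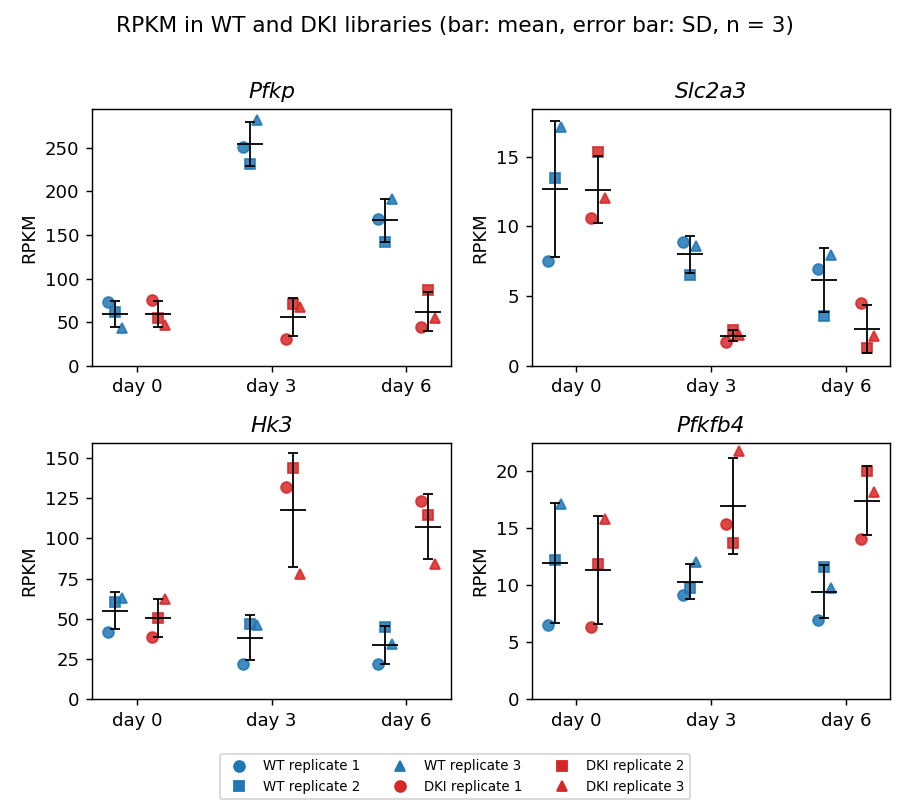
RPKM of *Pfkp*, *Slc2a3*, *Hk3* and *Pfkfb4* by day in WT (blue) and DKI (red) libraries; symbols are replicates 1 to 3, bars are means and error bars SD (n = 3). On day 3 the WT and DKI points of each of the 4 genes are separate, and on day 0 they overlap.

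*Aldoc*, an aldolase isoform best known from the brain, made the steepest rise of the list. *Aldoc* (chr11:78323073-78327781) was at 0.797, 0.625 and 0.812 RPKM in WT and 0.605, 0.980 and 0.835 RPKM in DKI monocytes. After 3 days it was at 139, 44.3 and 87.1 RPKM in WT and at 8.44, 21.0 and 48.3 RPKM in DKI. It rose by 5.56 in WT (SE 0.38, adjusted p = 0.000118) and by 3.59 in DKI (SE 0.56, adjusted p = 0.0055) on the log2(RPKM + 1) scale, which understates changes from such low levels. The WT and DKI ranges overlapped on day 3 (-1.92, SE 0.67, adjusted p = 0.136) and on day 6, when DKI replicate 2 was at 103 RPKM and the other DKI libraries at 5.92 and 15.9 RPKM. Without DKI day 6 replicate 2, the day 6 difference went from -1.71 (adjusted p = 0.285) to -2.80 (adjusted p = 0.0315), and was called. *Aldoa*, the main aldolase of these cells at 255 to 846 RPKM, rose by 1.19 in WT (adjusted p = 0.0035) and 0.80 in DKI (adjusted p = 0.0187), and *Tpi1*, which interconverts the triose phosphates, by 1.01 (adjusted p = 0.0443) and 0.89 (adjusted p = 0.0142). The WT rise of *Tpi1* was 0.62 without WT day 3 replicate 1 (adjusted p = 0.0588), and with the replicate block it had an adjusted p of 0.0809; it was called in neither. *Gpi1*, the isomerase between hexokinase and phosphofructokinase, was not called.

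In the second part of the pathway *Eno1*, the common enolase, rose by 0.84 in WT (SE 0.21, adjusted p = 0.0165; 0.0538 with the replicate block, where it was not called), and its change in DKI was 0.38 (adjusted p = 0.227). The difference between these changes was -0.47 (95% interval -1.16 to 0.23). *Pkm*, encoding pyruvate kinase, was among the most abundant at 234 to 605 RPKM and had a log2 change of 0.10 in WT (95% interval -0.37 to 0.57) and 0.01 in DKI (-0.77 to 0.78). *Pgam1* was not called as fitted, and its WT change of 0.49 from day 0 to day 3 (adjusted p = 0.0732) was 0.64 and called without WT day 3 replicate 2 (adjusted p = 0.0455). *Gapdh* was listed at 0.392 to 1.21 RPKM in all 18 libraries, *Eno2* at 0.0129 to 1.35 RPKM, and neither reached the level for testing. *Gapdh* has many processed pseudogene copies, and how reads that match several genes were counted is not given in the sources used here. Its level is therefore uncertain, and so is that of any other listed gene with such copies.

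Lactate dehydrogenase A, which turns pyruvate into lactate, rose in both genotypes. *Ldha* (chr7:46842274-46855627) was at 74.5, 103 and 109 RPKM in WT and 81.9, 104.5 and 114.4 RPKM in DKI monocytes, and at 636, 342 and 357 against 242, 284 and 260 RPKM on day 3. The rise was 2.17 in WT (SE 0.28, adjusted p = 0.0013; 1.88 without WT day 3 replicate 1, adjusted p = 0.0022) and 1.39 in DKI (SE 0.20, adjusted p = 0.0043). On day 3 each WT library was above each DKI library, but the difference of -0.71 (SE 0.29, adjusted p = 0.18) was not called and was -0.42 without WT day 3 replicate 1. On day 6 the levels were 535, 285 and 259 RPKM in WT and 299, 379 and 208 RPKM in DKI, which overlap (-0.25, 95% interval -1.11 to 0.61).

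*Ldhb*, the subunit that favours the reverse reaction, moved the other way. It was at 6.58, 11.9 and 13 RPKM in WT and 6.06, 11.2 and 9.76 RPKM in DKI monocytes, and at 1.41, 1.81 and 4.44 RPKM in WT and 1.66, 3.98 and 9.16 RPKM in DKI on day 3. It fell in WT by 1.74 (log2 fold change -1.74, SE 0.37, adjusted p = 0.0084) and changed in DKI by -0.93 (SE 0.49, adjusted p = 0.178; -1.42 without DKI day 3 replicate 3, adjusted p = 0.0425, called), with overlapping DKI ranges. Of the summed RPKM of *Ldha* and *Ldhb*, *Ldhb* made up 8.12% to 10.6% in WT and 6.89% to 9.69% in DKI monocytes, and 0.221% to 1.23% and 0.681% to 3.41% on day 3, without overlap between the days in either genotype.

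The lactate exporter *Slc16a3* (MCT4) was not called in any comparison and ranged from 21.2 to 160 RPKM. *Slc16a1* (MCT1) was at 19.5, 22.0 and 17.0 RPKM in DKI monocytes and 2.15, 8.10 and 11.4 RPKM on day 3, a fall of 1.53 (log2 fold change -1.53, SE 0.49, adjusted p = 0.0496). This call lies at the limit, and was lost with a pseudocount of 0.1, with no filter, with median centring, with quantile normalization, without the intensity trend, with the replicate block and without any of the DKI day 0 libraries or DKI day 3 replicate 2 (adjusted p 0.0521 to 0.135). Without the libraries of the earlier year the fall was smaller but called (-0.94, SE 0.20, adjusted p = 0.0190). In WT *Slc16a1* went from 19.7, 16.3 and 13.1 to 7.05, 7.33 and 13.8 RPKM (-0.78, adjusted p = 0.0506), and this change was called without WT day 0 replicate 3 or WT day 3 replicate 3 (-0.92 and -1.07, adjusted p 0.0492 and 0.0137).

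Promoter sequence is shown for 4 genes, *Ldha* and *Aldoc*, which rose in both genotypes, and *Pfkp* and *Hk3*, which differed between them. Each line gives the 250 bases before and 50 bases from an annotated RefSeq transcription start in build GRCm38.p6 (the assembly of mm10), 5′ to 3′ on the strand of the gene. Capitals mark ACGTG and GCGTG, the core letters of hypoxia response elements, on either strand, and TTCNNNGAA, the letters that STAT factors bind; CACGTG is ACGTG read on both strands.
Ldha chr7:46845554-46845853 (+ strand): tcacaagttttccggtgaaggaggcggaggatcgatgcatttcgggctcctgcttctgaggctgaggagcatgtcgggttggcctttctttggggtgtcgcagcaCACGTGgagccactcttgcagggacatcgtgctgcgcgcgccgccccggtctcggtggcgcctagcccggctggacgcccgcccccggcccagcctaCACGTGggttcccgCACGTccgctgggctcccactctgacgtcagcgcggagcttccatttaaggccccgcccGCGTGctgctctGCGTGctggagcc
Aldoc chr11:78322823-78323122 (+ strand): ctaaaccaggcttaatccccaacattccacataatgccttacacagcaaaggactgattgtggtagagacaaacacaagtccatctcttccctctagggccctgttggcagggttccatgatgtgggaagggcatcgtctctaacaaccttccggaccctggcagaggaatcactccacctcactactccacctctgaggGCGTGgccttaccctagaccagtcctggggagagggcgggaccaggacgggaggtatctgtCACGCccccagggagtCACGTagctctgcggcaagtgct
Pfkp chr13:6648722-6649021 (- strand): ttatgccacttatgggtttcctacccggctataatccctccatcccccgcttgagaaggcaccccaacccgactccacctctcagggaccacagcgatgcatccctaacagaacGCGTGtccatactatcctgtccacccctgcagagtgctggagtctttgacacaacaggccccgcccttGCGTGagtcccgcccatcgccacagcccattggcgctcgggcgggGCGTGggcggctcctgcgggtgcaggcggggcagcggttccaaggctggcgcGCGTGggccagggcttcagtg
Hk3 chr13:55021336-55021635 (- strand): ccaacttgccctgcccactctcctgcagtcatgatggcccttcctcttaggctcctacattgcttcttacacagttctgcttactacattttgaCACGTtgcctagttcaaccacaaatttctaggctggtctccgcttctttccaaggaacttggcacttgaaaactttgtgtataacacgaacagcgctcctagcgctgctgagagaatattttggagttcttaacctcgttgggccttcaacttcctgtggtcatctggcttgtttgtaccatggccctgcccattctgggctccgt

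In the *Ldha* window ACGTG was found at 5 positions counting both strands (2 of them pairs that form CACGTG), 34 to 145 bases before the start, and GCGTG at 2 positions after it. The *Aldoc* window held GCGTG 2 times and ACGTG once. The *Pfkp* window held GCGTG 4 times and no ACGTG, and the *Hk3* window held ACGTG once, 156 bases before the start. TTCNNNGAA was in none of these 4 windows, but a further annotated start of *Aldoc* (window chr11:78323948-78324247) held it 2 times, as TTCAGTGAA and TTCCAGGAA. Windows were given for 34 of the 36 genes, 48 windows in all. ACGTG or GCGTG was in 39 of them (81.3%), against 51.4% of the 18862 windows of all genes in the table, and TTCNNNGAA in 2 (4.17%), against 7.76%. Each match is a description of letters and says nothing of binding. The paper states that STAT5 tetramers can bind weaker sites that depart from the consensus letters, and these were not searched. Windows without TTCNNNGAA may still hold such sites.

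Pyruvate dehydrogenase kinases inhibit pyruvate dehydrogenase, which uses pyruvate in mitochondria. *Pdk1* was at 2.21, 3.75 and 5.61 RPKM in WT and 2.26, 3.94 and 4.65 RPKM in DKI monocytes, and at 25.0, 6.74 and 9.47 RPKM in WT and 12.2, 12.1 and 11.7 RPKM in DKI on day 3. It rose by 1.46 in WT (SE 0.48, adjusted p = 0.0400) and by 1.53 in DKI (SE 0.23, adjusted p = 0.0053). The WT value was 0.95 without WT day 3 replicate 1 (adjusted p = 0.0735), and its adjusted p was 0.0797 with the replicate block; it was called in neither. The DKI libraries of day 3 lay within the WT range, and the difference was 0.02 (95% interval -1.01 to 1.05). *Pdk4* was at 0 to 1.12 RPKM, with the highest value in WT day 3 replicate 2, and was not tested.

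**Figure D5:**
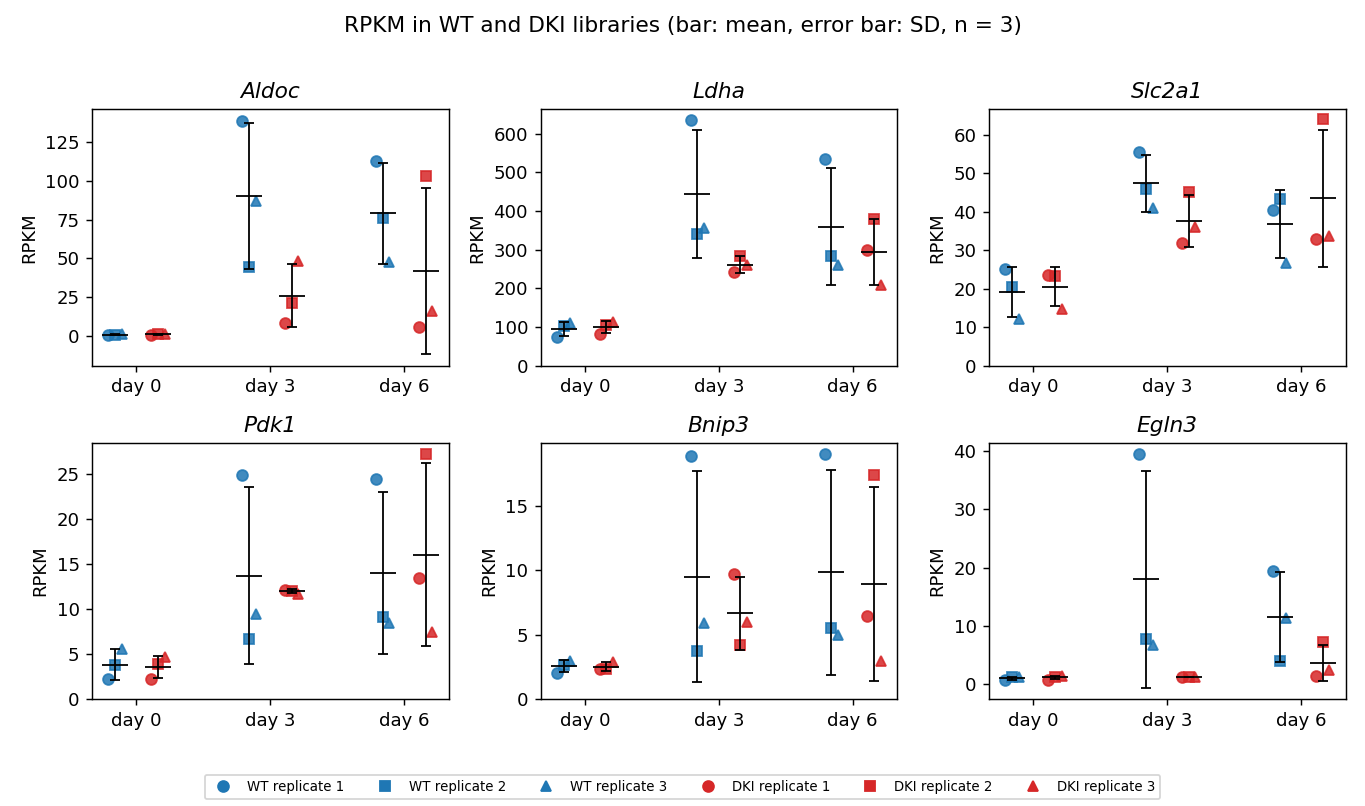
RPKM of *Aldoc*, *Ldha*, *Slc2a1*, *Pdk1*, *Bnip3* and *Egln3* by day in WT (blue) and DKI (red) libraries; symbols are replicates 1 to 3, bars are means and error bars SD (n = 3). Replicate 1 is the highest WT point on day 3 in each panel, and replicate 2 the highest DKI point on day 6.

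The oxygen-sensing genes did not move together. *Hif1a* was abundant before culture, at 120, 90.6 and 57.0 RPKM in WT and 116, 84.1 and 63.7 RPKM in DKI. It was at 72.5, 48.7 and 67.5 RPKM in WT and 192, 52.9 and 84.6 RPKM in DKI on day 3, and at 68.8, 59.7 and 74.8 against 111.7, 34.1 and 77.1 RPKM on day 6. The ranges overlapped on each day. *Hif1a* was not called in any of the 9 comparisons as fitted (from day 0 to day 3 in WT it was called without WT day 0 replicate 3, -0.74, against -0.45 with all libraries), and the day 3 difference of 0.61 had a 95% interval of -0.50 to 1.73. RNA level does not report on the protein, which is set mainly by its breakdown.

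*Egln3*, a prolyl hydroxylase that is itself a HIF target, rose in WT cells. *Egln3* (chr12:54178981-54203874) was at 0.694, 1.20 and 1.20 RPKM in WT and 0.827, 1.36 and 1.42 RPKM in DKI monocytes. On day 3 it was at 39.5, 7.86 and 6.77 RPKM in WT and at 1.33, 1.20 and 1.28 RPKM in DKI. The WT rise was 2.80 (SE 0.60, adjusted p = 0.0087), and without WT day 3 replicate 1 it was 2.04 (SE 0.22, adjusted p = 0.0020). The DKI groups of days 0 and 3 were too low to be tested against each other. The day 3 difference between genotypes was -2.63 (SE 0.61, adjusted p = 0.0534), which was not called, and without WT day 3 replicate 1 it was smaller but called (-1.87, SE 0.19, adjusted p = 0.0273). It was also called with a pseudocount of 0.1 (-3.24, adjusted p = 0.0378), with all 18 libraries in the fit (adjusted p = 0.00847) and in the libraries of the later year (-1.89, adjusted p = 0.0261). The difference between the genotypes' changes from day 0 behaved alike, at -2.75 (SE 0.70, adjusted p = 0.0679) with all libraries and -1.98 (SE 0.27, adjusted p = 0.00595) without that one, and it was called as well in the libraries of the later year (adjusted p = 0.00800) and without WT day 3 replicate 3 (-3.17, adjusted p = 0.0376). On day 6 it was at 19.4, 3.97 and 11.3 RPKM in WT and 1.41, 7.26 and 2.48 RPKM in DKI, which overlap (-1.39, adjusted p = 0.207). The sister gene *Egln1*, the main hydroxylase of HIF subunits, was not called in any comparison.

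Among 7 further hypoxia response genes, 2 rose from day 0 to day 3 in DKI, where 13.1% of all tested genes rose. They were *P4ha1*, a collagen prolyl hydroxylase subunit, with 11.8, 12.7, 24.1 and 35.0 RPKM as the means of WT day 0, DKI day 0, WT day 3 and DKI day 3, and *Bnip3*, a mitophagy receptor, with means of 2.55, 2.53, 9.49 and 6.65 RPKM. The rise in DKI was 1.28 for *P4ha1* (SE 0.36, adjusted p = 0.0324) and 1.06 for *Bnip3* (SE 0.29, adjusted p = 0.0298). The WT changes were 0.91 (SE 0.32, adjusted p = 0.0513) and 1.29 (SE 0.50, adjusted p = 0.0673), neither called. They were 0.64 and 0.69 without WT day 3 replicate 1 (adjusted p = 0.142 and 0.0745), and 1.24 and 1.73, both called, without WT day 3 replicate 2 (adjusted p = 0.0117 and 0.0272). The *P4ha1* change in WT was called with median centring (adjusted p = 0.0487) and with quantile normalization (1.01, adjusted p = 0.0493). The differences between genotypes in these changes were 0.37 (95% interval -0.77 to 1.52) and -0.24 (-1.62 to 1.15). *Vegfa*, the endothelial growth factor, ranged from 1.03 to 48.4 RPKM with the highest value in DKI day 6 replicate 3. *Ddit4*, an inhibitor of mTORC1, was at 19.4 and 26.0 RPKM in replicate 1 of WT and DKI day 0 and at 2.46 to 4.88 RPKM in the other day 0 libraries. *Bnip3l*, a relative of *Bnip3*, changed by -0.49 from day 0 to day 3 in WT (adjusted p = 0.0469), less than the fold limit of 1.5. *Vegfa*, *Ddit4*, *Bnip3l*, *Ero1l* and *Ankrd37* were not called in any of the 9 comparisons as fitted. From day 0 to day 3 in WT, *Ero1l* was called without WT day 0 replicate 1 (0.82, adjusted p = 0.0364; 0.49 with all libraries) and *Ankrd37* with a pseudocount of 0.1 (1.88, adjusted p = 0.0463; 1.25 with a pseudocount of 1).

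A list of 81 other genes of glucose metabolism and the hypoxia response gave 78 genes in the table. On day 3, 5 of 60 tested were higher in DKI and 4 lower (15% called, against 7.42% of all tested genes), and on day 6, 4 of 63 were higher and 1 lower (7.94%, against 7.54%). The lactate and pyruvate transporter *Slc16a7* (MCT2) was at 1.17, 0.604 and 1.61 RPKM in WT and 17.1, 6.83 and 9.93 RPKM in DKI on day 3 (2.47, SE 0.35, adjusted p = 0.0145). *Hmox1*, the haem-degrading enzyme, was at 39.6, 43.8 and 46.1 against 196, 192 and 150 RPKM (2.02, SE 0.17, adjusted p = 0.0048). *Ndrg1*, a hypoxia-induced gene, was lower in DKI, at 82.5, 47.6 and 59.5 against 7.85, 20.7 and 16.6 RPKM (-2.06, SE 0.37, adjusted p = 0.0282). *Vhl*, which recognises hydroxylated HIF subunits, was lower in DKI on both days. On day 3 it was at 36.7, 52.6 and 45.6 RPKM in WT and 12.3, 17.0 and 22.1 RPKM in DKI. On day 6 it was at 52.2, 42.6 and 66.7 RPKM in WT and 12.7, 23.3 and 15.03 RPKM in DKI (-1.63, SE 0.27, adjusted p = 0.0268). From day 0 to day 3, 13 of 59 rose and 11 fell in WT (40.7%, against 43.1% of all tested genes), and 11 of 60 rose and 10 fell in DKI (35.0%, against 34.2%). *Cxcr4*, a chemokine receptor, fell in both, from 266 to 431 RPKM to 10.6 to 26.2 RPKM in WT and from 293 to 369 to 40.5 to 91.5 RPKM in DKI. The muscle enolase *Eno3* rose in WT (2.21, adjusted p = 0.0014) from 1.79, 2.89 and 2.06 to 12.04, 21.7 and 10.1 RPKM, and was at 1.58, 3.89 and 2.72 and then 2.90, 2.09 and 4.21 RPKM in DKI. The change differed between genotypes (-2.07, SE 0.45, adjusted p = 0.0359).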

How the data were processed

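Bulk RNA-seq libraries from WT and DKI cells (6 groups of 3, which the study describes as independent experiments) were analysed from a single deposited table. Per the study's methods, the authors sequenced single-end mRNA libraries, aligned reads to mm10 with Subread, counted them on RefSeq genes with featureCounts and computed RPKM values per gene. Tool versions, strandedness and the treatment of reads matching several genes are not given in the sources used here. The table holds no counts, so no count test was run, and depth was read from the value of a single read among 1378 olfactory, vomeronasal and taste receptor genes, which mostly had few reads.

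Values were transformed to log2(RPKM + 1) and fitted with limma 3.58.1 (R 4.3.3), with moderated variances and an intensity trend, on the libraries of the groups compared. Genes with a mean above 2 RPKM in at least one group entered. A gene was called at a Benjamini-Hochberg adjusted p under 0.05, over all genes tested, and a fold change above 1.5, in 9 comparisons. The fit was also run on simulated data in which libraries varied independently, so it was not tested under the shared deviations given below. The tests are two-sided, and their intervals are 95% intervals of the fit. Promoter windows came from RefSeq and were searched with Python 3.11.15.

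Values in every library are given for genes called between genotypes or in a genotype-by-day test, for the 5 called genes with the largest change over time in each genotype, and for *Hif1a*. Values of *Hk3*, *Slc2a1* and *Pfkfb4* on further days were added after they were seen. The genes and lists were chosen with earlier results of these data known. Replicate numbers paired the WT and DKI libraries of a day: deviations from the group means of same-numbered libraries correlated at 0.686 to 0.865 on day 0, 0.163 to 0.369 on day 3 and 0.338 to 0.413 on day 6, and in days 3 and 6 of a genotype at 0.125 to 0.743. The labels do not say what a number stands for. Fits without the block left this shared deviation in their spread, and so were cautious between these groups. Alternatives were a pseudocount of 0.1, no filter, median centring, quantile normalization, all 18 libraries, no trend, the replicate number as a block, and leaving out each library or the libraries of the earlier year.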

Additional observations from a re-analysis of the deposited data

Results flagged for a closer look

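*Pfkp*, the platelet-type phosphofructokinase subunit, stood out because its change from day 0 to day 3 differed between genotypes in a test of that difference. The log2 fold change of DKI minus that of WT was -2.23 (SE 0.44, adjusted p = 0.0245 by limma, 95% interval -3.21 to -1.25), from a rise of 2.10 in WT and a change of -0.13 in DKI. The call was lost without some single libraries, as given above. Leaving out 1 library gave 0 to 2 called genes of the list in this test. All 3 WT libraries of day 3 (231 to 282 RPKM) were above all 3 DKI libraries (31.0 to 70.8 RPKM). The dendritic cell markers separated the same libraries, at 12160 to 13553 against 728 to 2385 summed RPKM. So did the sums of the macrophage markers (270 to 773 against 2466 to 6098) and of the Ly6C+ monocyte markers (1586 to 3832 against 8945 to 21057). The part of these markers in the *Pfkp* difference was not tested.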

How the results depend on the processing

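Of the values of named genes recomputed under the alternatives, 317 kept their side of the threshold, 35 lost their call and 1 gained one. The gain was *Hif1a*, WT day 3 against day 0, at -0.74 (adjusted p = 0.0469 by limma, without WT day 0 replicate 3). Among values called in either fit, 0 reversed direction. Values called in neither fit count among the 317 even where their direction changed. Between genotypes on day 3, 2 genes were called, and 4 with all 18 libraries in the fit (1 higher, 3 lower in DKI). On day 6, 2 were called, 0 with no filter on mean RPKM (*Hk3* adjusted p = 0.0587, *Pfkp* 0.0632) and 0 without the libraries of the earlier year. From day 0 to day 3 in DKI, 11 were called, and 7 with no filter. The difference of these changes between genotypes gave 1 call, and 2 with a pseudocount of 0.1, with quantile normalization, with the replicate block or without the libraries of the earlier year. With the replicate block, 0, 2 and 2 genes were called between genotypes on days 0, 3 and 6 (*Hk3* and *Pfkfb4* on day 6), 7 and 10 from day 0 to day 3 in WT (*Tpi1*, *Eno1* and *Pdk1* lost) and DKI (*Hk3* and *Slc16a1* lost, *Pfkfb3* gained), and 0 from day 3 to day 6; same-numbered libraries of days 0 and 3 did not deviate together. Median centring gave 3 calls on day 6 (2 higher, 1 lower), and took the median difference of all tested genes from -0.11 to -0.04 on day 3, from -0.17 to -0.02 on day 6 and, for day 3 against day 0 in DKI, from -0.16 to 0.01. Leaving out 1 library gave 0 to 2 calls on day 3 (0 without WT replicate 3; 197 to 715 over all genes), 0 to 3 on day 6 (0 without WT replicate 1 or 3, or DKI replicate 1 or 3; 3 without DKI replicate 2; 90 to 984 over all genes), 8 to 13 from day 0 to day 3 in WT (3363 to 4286) and 4 to 11 in DKI (1976 to 3412). For the difference of these changes it gave 0 to 2 (0 without WT day 0 replicate 2 or DKI day 0 replicate 1 or 2; 125 to 336 over all genes), and 0 elsewhere.

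With 3 libraries a group and unequal spread, differences such as that of *Aldoc* on day 6, with a 95% interval of -4.00 to 0.58 on the log2 scale, remain undetermined. RPKM hold no counts, so counting error could not be modelled, and a 1 kb gene with 3 reads was at 0.0695 to 0.102 RPKM, depending on the library.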

Other observations

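Branches that leave glycolysis were listed as well. Of 7 pentose phosphate genes 1 was called between genotypes on days 3 and 6 (14.3%, against 7.42% and 7.54% of all tested genes), *H6pd*, which makes NADPH inside the endoplasmic reticulum. On day 3 it was at 10.8, 8.95 and 12.6 RPKM in WT and 19.3, 20.3 and 23.1 RPKM in DKI (log2 difference 0.91, SE 0.16, adjusted p = 0.0274 by limma), and on day 6 at 9.45, 12.8 and 8.16 against 21.5, 22.2 and 24.5 RPKM (1.11, SE 0.18, adjusted p = 0.0268). DKI libraries were above WT libraries on both days, and on day 0 the groups overlapped. *Rpia*, the ribose phosphate isomerase, fell from day 0 to day 3 in both genotypes (-1.06 in WT, -1.39 in DKI).

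Among glycogen genes *Gys1*, the glycogen synthase outside the liver, rose from day 0 to day 3 by 1.48 in WT (limma, adjusted p = 0.00775) and by 0.71 in DKI (adjusted p = 0.0496), and the difference between these changes was -0.77 (95% interval -1.67 to 0.13). *Pygl*, a glycogen phosphorylase, fell in DKI (-0.69).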
